A study of Homo sapiens with 6 samples.

Results

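The SR proteins, the TRA2 proteins, the CLK and SRPK kinases and the hnRNPs were followed in RNA-seq of HCT116 cells, a human colorectal carcinoma line with wild-type p53, treated with Nutlin-3a. The members were 37 genes listed by symbol, with no threshold on their values: 11 SR proteins, 2 TRA2 proteins, 6 kinases and 18 hnRNPs. Some genes of these families, such as SRSF8, SRPK3 and HNRNPDL, are outside the list and are given with the other splicing genes. The 37 stood in 38 of the 57905 rows of the count matrix, because SRSF10 has a second Ensembl row without a count in any library. Of the 37 genes, 36 passed the filter on low counts and were tested among 16565 genes. SRSF12 did not pass, with counts of 1 and 1 at Nut 0h, 0 and 1 at Nut 1h, then 1 and 2 at Nut 10h. Nut 0h cells received the vehicle DMSO, and Nut 1h and Nut 10h cells were kept for 1 h or 10 h in 10 µM Nutlin-3a, which blocks the binding of p53 by its inhibitor MDM2. Each condition had 2 libraries that the labels call biological replicates, all of a single cell line, so the p-values measure the spread between such cultures. The cells carried no engineered allele according to the labels of these libraries. A single vehicle group served both treatment times. A change with time in culture therefore cannot be told apart from one with Nutlin-3a. In bulk RNA, fewer cells with a transcript and less of it per cell cannot be told apart.

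SR proteins bind exonic enhancers through RNA recognition motifs and recruit the spliceosome through a domain rich in arginine and serine. TRA2 proteins are close relatives with such domains at either end. SRPK kinases phosphorylate these domains mainly in the cytoplasm and so promote nuclear import, whereas CLK kinases phosphorylate them in the nucleus and release SR proteins from speckles. The hnRNPs coat nascent transcripts, often repress nearby exons, and also act in export, stability and translation. Many of these genes limit their own mRNA through exons or introns that bring in a premature stop codon, so that gene counts mix productive and unproductive transcripts.

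The libraries held between 26068076 and 35473485 counts in genes, with 4.99 to 8.44% on the mitochondrial genome. Both Nut 1h libraries had the lowest totals (31731267 and 26068076, beside at least 34972083 in the others) and the highest mitochondrial shares (8.44 and 8.15%, beside at most 7.06%), whose part in the Nut 1h results was not tested. MDM2, a p53 target, was higher at Nut 1h (log2 fold change 2.19) and at Nut 10h (3.75). CDKN1A, the p53 target that encodes p21, stood at 0.05 at Nut 1h (not called) and at 3.84 at Nut 10h. Epithelial markers were present in all libraries, with EPCAM at 216 to 402 CPM (counts scaled to a common library total), CDH1 at 67.0 to 103, KRT8 at 1842 to 3645 and KRT18 at 482 to 659. At Nut 1h EPCAM (0.46) and CDH1 (0.51) were higher and KRT8 (-0.71) and KRT18 (-0.36) lower. At Nut 10h EPCAM was lower (-0.32), while CDH1 (0.16), KRT8 (0.16) and KRT18 (0.01) were not called. The part of these markers in the results was not tested. By contrast, PTPRC of leukocytes stayed at or below 0.0572 CPM and the fibroblast gene COL1A2 at or below 0.715. COL1A1, also a fibroblast gene, lay between 23.8 and 42.2 CPM and was lower at Nut 1h (-0.78). PECAM1 was not analysed here.

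The promoters of the members with the extreme changes are shown first, since the text returns to these genes. In the fit without a GC-content offset, described further on, they are HNRNPA3, with the largest rise at Nut 1h, CLK3, with the largest fall at Nut 1h, HNRNPAB, with the largest fall at Nut 10h, and SRSF10, with the widest difference between Nut 1h and Nut 10h. With the offset HNRNPUL2 had the largest rise and HNRNPAB the widest difference. Each sequence is the 250 bases before the RefSeq start site in GRCh38.p14, a later build than the GRCh37 of the counts, written 5′ to 3′ on the strand of the gene. Capitals mark matches to the CCAAT box (CCAAT), the TATA box (TATAAA), the SP1 box (GGGCGG), an ETS site (CCGGAAG), the cyclic AMP response element (TGACGTCA), the E-box (CACGTG) or the p53 consensus decamer, searched on both strands.
HNRNPA3 (chr2:177212544-177212793, plus strand): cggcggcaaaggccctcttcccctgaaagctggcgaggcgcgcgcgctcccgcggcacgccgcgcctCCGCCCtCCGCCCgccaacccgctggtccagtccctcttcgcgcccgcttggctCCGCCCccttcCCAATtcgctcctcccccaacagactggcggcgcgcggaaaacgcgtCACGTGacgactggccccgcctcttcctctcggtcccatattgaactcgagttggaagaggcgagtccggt
CLK3 (chr15:74608122-74608371, plus strand): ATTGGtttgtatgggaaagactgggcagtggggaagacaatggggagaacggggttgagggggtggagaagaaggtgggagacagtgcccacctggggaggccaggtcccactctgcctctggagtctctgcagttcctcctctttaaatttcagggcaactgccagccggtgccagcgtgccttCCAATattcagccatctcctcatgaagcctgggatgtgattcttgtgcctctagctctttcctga
HNRNPAB (chr5:178204283-178204532, plus strand): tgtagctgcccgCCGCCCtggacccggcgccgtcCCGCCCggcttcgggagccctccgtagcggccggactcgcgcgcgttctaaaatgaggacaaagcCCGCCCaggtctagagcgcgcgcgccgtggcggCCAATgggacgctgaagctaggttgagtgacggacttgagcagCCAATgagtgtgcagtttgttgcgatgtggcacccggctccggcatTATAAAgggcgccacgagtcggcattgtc
SRSF10 (chr1:23980328-23980577, minus strand): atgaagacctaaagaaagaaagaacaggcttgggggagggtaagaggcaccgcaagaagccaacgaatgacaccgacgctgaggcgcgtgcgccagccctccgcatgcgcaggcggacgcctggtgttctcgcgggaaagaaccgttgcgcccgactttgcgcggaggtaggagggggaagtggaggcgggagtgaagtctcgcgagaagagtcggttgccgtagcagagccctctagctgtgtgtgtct

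The HNRNPA3 promoter held an E-box that starts 71 bases before the start site, a CCAAT box and 3 SP1 boxes. The HNRNPAB promoter held 2 CCAAT boxes, 3 SP1 boxes and a TATA box 29 bases before the start site. That of CLK3 held 2 CCAAT boxes, in the window before the first listed of its 2 start sites. In the SRSF10 window none of these letters was found. RefSeq promoters were matched for 33 of the members, taking the first listed start site where a gene has several, and those of SRSF2, TRA2A and HNRNPA1 were not used here. The E-box was found in 7 of the 33 (21.2%), those of CLK2, CLK4, HNRNPA3, HNRNPD, HNRNPH2, HNRNPH3 and HNRNPM, against 6.49% of the 27305 promoters in the table. The SP1 box was found in 21 (63.6% against 42.3%), the CCAAT box in 14 (42.4% against 33.0%), the TATA box in 5 (15.2% against 11.1%) and the ETS site in 4 (12.1% against 8.82%). The p53 consensus decamer was found in 2 (6.06% against 5.53%), those of SRSF4 and HNRNPC, and the cyclic AMP response element in 0 (against 1.77%). The letters of the SP1 box are all G or C, and most letters of the E-box are. The member promoters had a median GC content of 65.2% against 58.0% for all. The part of base composition in these shares was not tested.

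Across the libraries the members took up a large and moving share of the counts. The 37 genes held 0.988 and 1.02% of all counts at Nut 0h, 1.62 and 1.63% at Nut 1h, then 0.820 and 0.893% at Nut 10h. Both Nut 1h libraries lay above all others and both Nut 10h libraries below them. The hnRNPs made up most of it, with 0.753 and 0.766% at Nut 0h, 1.24 and 1.25% at Nut 1h, then 0.629 and 0.681% at Nut 10h. The SR proteins went from 0.179 and 0.194% through 0.299 and 0.295% to 0.145 and 0.160%. For the kinases the Nut 0h shares (0.0278 and 0.0309%) and the Nut 10h shares (0.0263 and 0.0295%) overlapped.

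**Figure D1:**
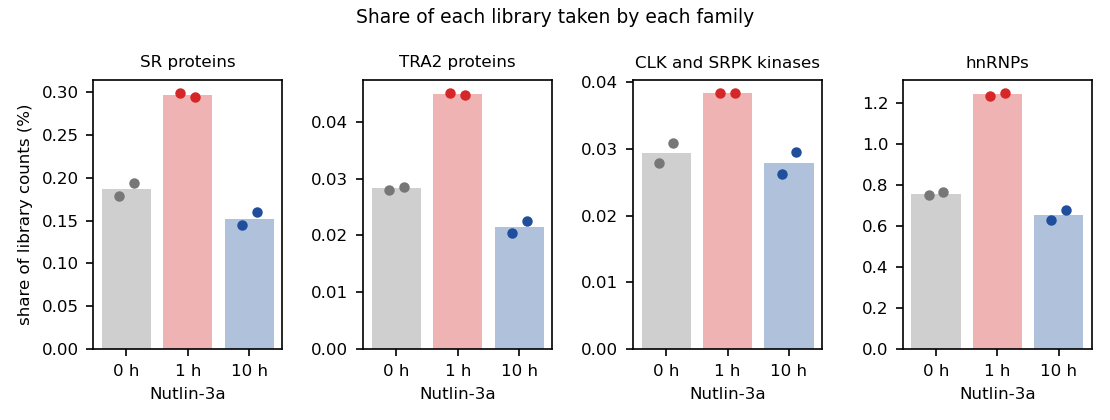
Share of all counts of a library, in percent, taken by each family at 0, 1 and 10 h of Nutlin-3a. Points are the 2 libraries of a condition and bars their mean, and each panel has its own scale from 0. The Nut 1h libraries are the highest in every family, and the kinase shares at 0 and 10 h overlap.

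At the level of single genes, levels were compared per kilobase of the canonical transcript (CPM per kb). Here CPM was taken over the TMM-scaled library size, not over the library total used for the markers. At Nut 0h the hnRNPs ran from 6.05 CPM per kb for HNRNPUL2 to 271 for HNRNPA1, with HNRNPA2B1 (243), HNRNPK (237) and HNRNPC (231) next. At Nut 1h HNRNPA2B1 was the highest member, at 566, ahead of HNRNPA1 at 497. SR proteins at Nut 0h ran from 16.2 for SRSF10 to 187 for SRSF9, and kinases from 2.04 for CLK4 to 35.3 for CLK3. TRA2A and TRA2B stood close together at Nut 0h, at 49.4 and 47.9, and apart at Nut 10h, at 50.4 and 30.2.

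The Nut 1h libraries were first set against Nut 0h, which asks how these genes stood early after p53 release. Of the 36 tested members 29 were higher and 3 lower (edgeR's quasi-likelihood test, Benjamini-Hochberg adjusted p at most 0.05), with a median log2 fold change of 0.59. Over all tested genes 34.5% were called higher and 32.3% lower, with a median of 0.05. Of the members called, 22 were higher and 1 lower by at least 0.5 on the log2 scale, beside 26.4 and 26.5% of all genes. By family, 8 of 10 SR proteins, 2 of 2 TRA2 proteins, 4 of 6 kinases and 15 of 18 hnRNPs were higher. The lower ones were CLK3, HNRNPL and HNRNPUL1, and the 4 that were not called were SRSF4, SRSF9, CLK2 and HNRNPAB.

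The change at Nut 1h followed the base composition of the transcripts across all genes, and the members are poor in G and C. Their longest transcripts had a median GC content of 41.1%, against 48.7% for the tested genes. The Pearson r between GC content and log2 fold change at Nut 1h was -0.69 over 16137 genes and -0.57 over the 36 members, and for Nut 10h it was -0.03 and -0.20. These are descriptions across genes, which share their libraries. Of the members below 40% GC, 14 of 14 were higher at Nut 1h, beside 82.6% of all genes in that class. Between 40 and 45% it was 11 of 13, beside 63.8%, and from 45% on 4 of 9, beside 13.0%, with 3 of 9 lower, beside 49.7%.

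**Figure D2:**
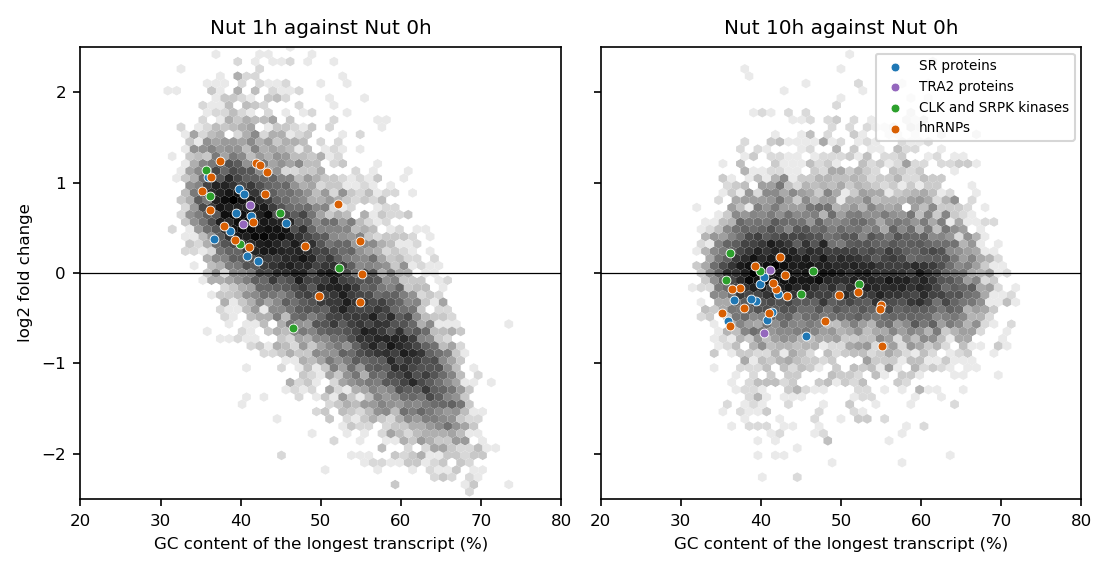
Log2 fold change against the GC content of the longest transcript, in percent, for Nut 1h (left) and Nut 10h (right). All tested genes are drawn as grey bins (darker for more genes, on a log scale of gene number) and the 36 members as coloured points. Of the 16137 genes, 339 and 136 lie outside the log2 range drawn. At Nut 1h r is -0.69 over all genes and -0.57 over the members, and at Nut 10h it is -0.03 and -0.20.

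When a GC-content offset, a smooth trend fitted in each library, was added to the same test, 16 members were higher and 10 lower at Nut 1h, with a median of 0.11. Over all genes the offset fit called 20.3% higher and 25.0% lower. By family it called 4 SR proteins higher and 4 lower, 0 TRA2 proteins, 3 kinases higher and 2 lower, and 9 hnRNPs higher and 4 lower. Of the 29 members higher without the offset, 14 were also higher with it: SRSF2, SRSF5, SRSF6, SRSF10, CLK1, SRPK1, HNRNPA1, HNRNPA2B1, HNRNPA3, HNRNPH1, HNRNPH2, HNRNPH3, HNRNPM and HNRNPUL2. With a replicate block added to the offset SRSF10 was not called (0.18, adjusted p = 0.0644). CLK3 and HNRNPL were lower in both fits. Whether the GC relation came from the cells or from the handling of the Nut 1h libraries was not tested, and it cannot be told apart from the condition because both libraries of Nut 1h carry it. The offset would also take out a real change that follows GC content.

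**Figure D3:**
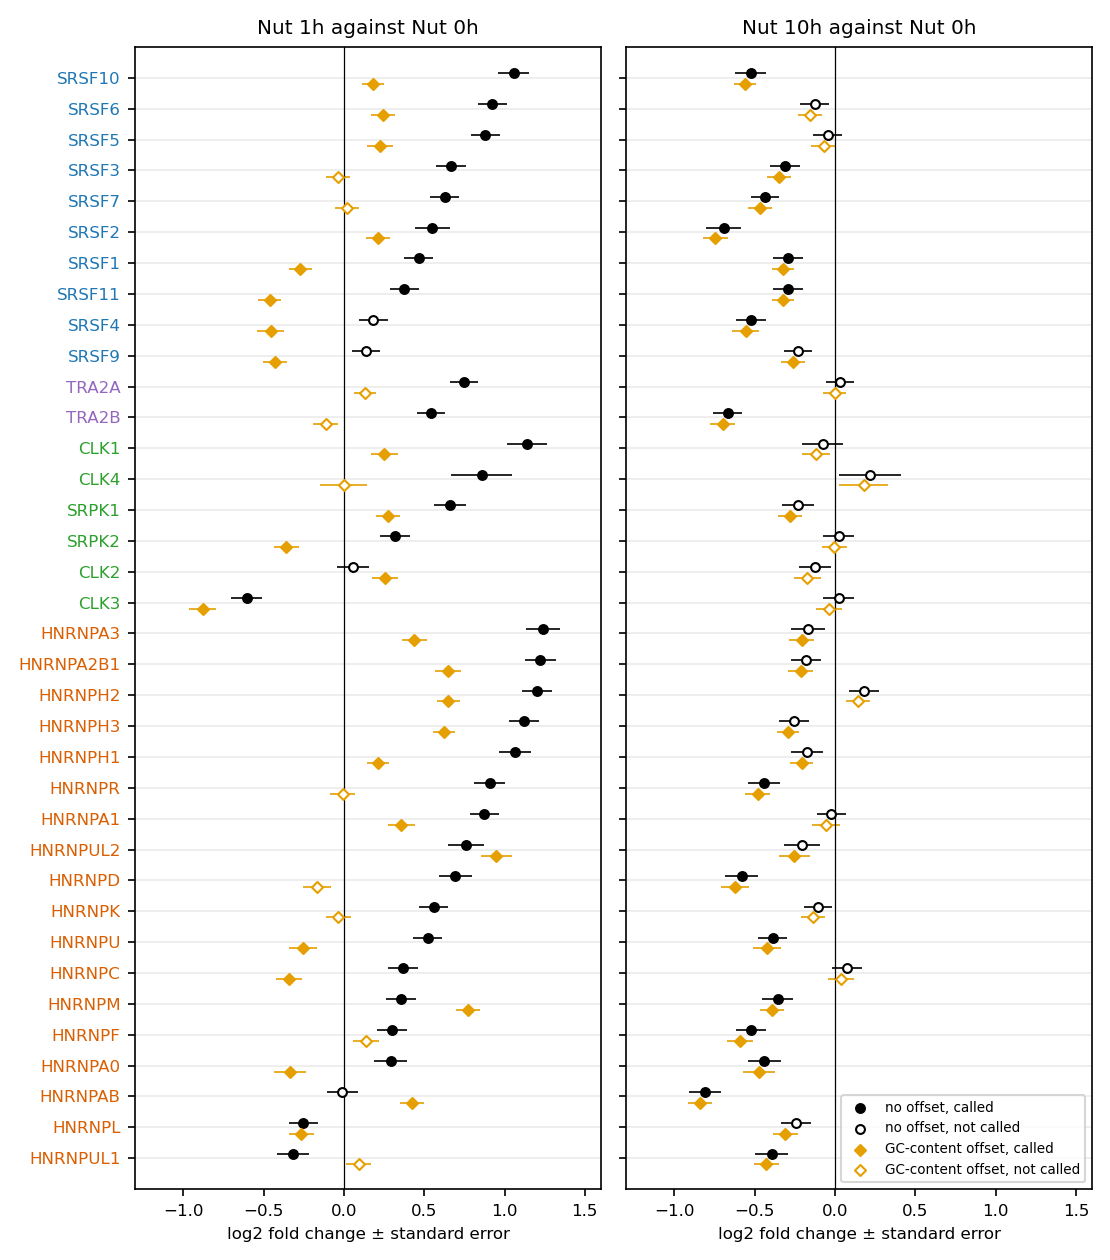
Log2 fold change with its standard error for the 36 tested members at Nut 1h and at Nut 10h against Nut 0h, without (circles) and with (diamonds) the GC-content offset. Filled symbols passed an adjusted p of at most 0.05. At Nut 1h the offset moves most members toward or past 0, and at Nut 10h the values of both fits lie close together.

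Among the SR proteins, SRSF10, which turns from an activator to a repressor of splicing when dephosphorylated in heat shock, had the largest rise at Nut 1h in the fit without the offset, and with it lay below SRSF2, SRSF5 and SRSF6. Its normalized counts (counts per TMM-scaled library size) were 3954 and 4237 at Nut 0h, 8495 and 8548 at Nut 1h, then 2640.3 and 3051 at Nut 10h. The 3 conditions did not overlap, with Nut 1h high and Nut 10h low. SRSF10 changed at Nut 1h by a log2 fold change of 1.06 ± 0.10 (SE, adjusted p = 7.71e-07) and 0.18 ± 0.07 with the offset. At Nut 10h it was -0.53 ± 0.10 (adjusted p = 0.00109), and -0.56 with the offset. SRSF6, an enhancer-binding SR protein, had 9342 and 9587 normalized counts at Nut 0h, 17762 and 18158 at Nut 1h, then 8392 and 8956 at Nut 10h. It was clearly above the other conditions at Nut 1h (0.92 ± 0.09), with 0.24 under the offset, and was not called at Nut 10h (-0.13 ± 0.09).

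SRSF2, known as SC35 and a marker of nuclear speckles, rose and then fell. It had 5034.5 and 5960.3 normalized counts at Nut 0h, 8300.2 and 7807 at Nut 1h, then 3146 and 3655 at Nut 10h, with no overlap. Its log2 fold change was 0.55 ± 0.11 early and -0.69 ± 0.11 late (adjusted p = 0.000268), and 0.21 and -0.74 with the offset. The annotation places exons of MFSD11 on the other strand within SRSF2, so that without a stated strand setting part of the counts could be read from either gene. SRSF4 had 3810.2 and 3419 normalized counts at Nut 0h, 4067 and 4142 at Nut 1h, then 2479.8 and 2549.7 at Nut 10h. The early values lay above Nut 0h without passing the test (0.18 ± 0.09, adjusted p = 0.0916), the late ones below it (-0.52 ± 0.09, adjusted p = 0.000715). With the offset SRSF4 was lower at both times (-0.46 and -0.56).

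SRSF9, the SR protein with the highest level per kilobase, had 7244.5 and 6968 normalized counts at Nut 0h, 7728 and 7917 at Nut 1h, then 6007 and 6109 at Nut 10h. The conditions did not overlap, yet neither change against Nut 0h was called (0.14 ± 0.09 and -0.23 ± 0.09), and with the offset both were lower (-0.43 and -0.26). SRSF9 overlaps exons of GATC on the other strand. SRSF3 and SRSF7, which also act as adapters for mRNA export, were 0.66 ± 0.09 and 0.63 ± 0.09 at Nut 1h, then -0.31 ± 0.09 and -0.44 ± 0.09 at Nut 10h. With the offset neither was called at Nut 1h (-0.04 and 0.02), and both remained lower at Nut 10h (-0.35 and -0.47). SRSF1, the first-described SR protein, and SRSF11 reversed at Nut 1h under the offset, from 0.46 to -0.27 and from 0.38 to -0.46. At Nut 10h SRSF1 and SRSF11 each stood at -0.29 ± 0.09. SRSF5 was higher at Nut 1h (0.88 ± 0.09, and 0.22 with the offset) and near its Nut 0h level at Nut 10h (-0.05 ± 0.09).

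Of the 2 TRA2 genes TRA2B alone was called at Nut 10h, and the difference between the genes was not tested. TRA2A had 2913.5 and 2911 normalized counts at Nut 0h, 4903 and 4880.6 at Nut 1h, then 2866 and 3079 at Nut 10h, where it overlapped Nut 0h. TRA2B, which limits itself through a poison exon, had 6704 and 6516 at Nut 0h, 9454 and 9816 at Nut 1h, then 4052 and 4268 at Nut 10h. Its Nut 10h libraries lay below all others. At Nut 1h TRA2A and TRA2B were higher by 0.75 ± 0.09 and 0.54 ± 0.09, and with the offset neither was called (0.13 and -0.11). At Nut 10h TRA2B changed by -0.67 ± 0.09 (log2, adjusted p = 6.46e-05), or -0.70 with the offset, while TRA2A stood at 0.03 ± 0.09.

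Among the kinases, CLK3 was lower at Nut 1h, while CLK1, CLK4, SRPK1 and SRPK2 were higher. It had 2176 and 2141 normalized counts at Nut 0h, 1351 and 1486 at Nut 1h, then 2279.7 and 2104 at Nut 10h. Both Nut 1h libraries were low, and Nut 0h and Nut 10h overlapped. Its log2 fold change there was -0.61 ± 0.10 (adjusted p = 7.03e-05), and -0.88 ± 0.08 with the offset. Exons of EDC3 lie on the strand opposite to CLK3, those of LHFPL5 opposite SRPK1 and those of KMT2E opposite SRPK2, so that the limit on strand given for SRSF2 holds for these kinases too. CLK1, a kinase that controls the splicing of its own retained introns, had 547 and 589 normalized counts at Nut 0h, 1312 and 1191 at Nut 1h, then 471 and 606 at Nut 10h. Its Nut 1h libraries stood apart (1.14 ± 0.12, adjusted p = 2.65e-06, and 0.25 with the offset) and the other conditions overlapped.

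CLK4, the tested member with the lowest level per kilobase, had 144 and 193 normalized counts at Nut 0h, 305.0 and 307 at Nut 1h, then 156 and 236 at Nut 10h. Nut 10h replicate 2 was above both Nut 0h libraries and replicate 1 between them. CLK4 was higher at Nut 1h (0.86 ± 0.19, adjusted p = 0.00115) without the offset and at -0.001 with it. At Nut 10h its change of 0.22 ± 0.19 was not called in the fit of all libraries, and without Nut 10h replicate 1 it was 0.49 (adjusted p = 0.0301), where the lone Nut 10h library is assumed to vary like the other groups. SRPK1 was higher at Nut 1h in both fits (0.66 ± 0.10 and 0.27 ± 0.07), whereas SRPK2 went from 0.32 ± 0.09 to -0.36 ± 0.08 with the offset. Without the offset SRPK2 did not pass when Nut 0h replicate 1 (0.23, adjusted p = 0.138) or either Nut 1h library (0.32 and 0.31, adjusted p = 0.0658 and 0.0689) was left out. CLK2 passed the test in none of the 3 comparisons, with normalized counts between 1792 and 2205 over all libraries, and log2 fold changes between -0.18 and 0.06, and with the offset it was higher at Nut 1h (0.26 ± 0.08) and lower at Nut 10h than at Nut 1h (-0.43 ± 0.08). At Nut 10h against Nut 0h edgeR's test called 0 of the 6 kinases, with 1 lower at an unadjusted p under 0.05 and 0 called by DESeq2. Over all genes 14.1% were called higher and 14.9% lower, so that 0 of 6 lies near the background. SRPK1 was lower there with the offset (-0.28 ± 0.07) or without Nut 10h replicate 2 (-0.34, adjusted p = 0.0384, with the same assumption on the lone library).

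Without the offset the largest rises of all members at Nut 1h were those of hnRNPs, and with it that of HNRNPUL2, another hnRNP. HNRNPA3 had 12101 and 12460.0 normalized counts at Nut 0h, 28483 and 29463 at Nut 1h, then 9796 and 12074 at Nut 10h. HNRNPA2B1, which binds RNA in export and microRNA sorting, had 28338 and 29805 at Nut 0h, 67191 and 68495 at Nut 1h, then 24287 and 26972 at Nut 10h. Nut 1h was far above both other conditions in each gene, and Nut 10h lay below Nut 0h without overlap but was not called. HNRNPA3 changed by 1.24 ± 0.11 at Nut 1h (adjusted p = 4.61e-07) and -0.17 ± 0.11 at Nut 10h, HNRNPA2B1 by 1.22 ± 0.10 (adjusted p = 2.54e-07) and -0.18 ± 0.10. With the offset the Nut 1h values were 0.44 and 0.65, and the Nut 10h values, -0.21 for each, passed. With a replicate block added to the offset neither gene was called at Nut 10h. Exons of NFE2L2 lie on the strand opposite to HNRNPA3, and those of NFE2L3 and CBX3 opposite HNRNPA2B1, so that the same limit on strand holds for both.

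The H proteins, which bind runs of G, rose together at Nut 1h. HNRNPH1 had 10649 and 11930.0 normalized counts at Nut 0h, 24108 and 23078 at Nut 1h, then 9379 and 10655 at Nut 10h. HNRNPH2 had 1437 and 1444 at Nut 0h, 3214 and 3402 at Nut 1h, then 1560.4 and 1700.1 at Nut 10h. HNRNPH3 had 2800.4 and 2949.6 at Nut 0h, 6202 and 6312 at Nut 1h, then 2291 and 2528 at Nut 10h. In each the Nut 1h libraries were above all others, and at Nut 10h HNRNPH1 overlapped Nut 0h, HNRNPH2 lay above it and HNRNPH3 below it. The Nut 1h changes were 1.06 ± 0.10, 1.20 ± 0.09 and 1.12 ± 0.09, and 0.21, 0.65 and 0.62 with the offset, all called. At Nut 10h none was called (-0.17 ± 0.10, 0.18 ± 0.09 and -0.25 ± 0.09), while with the offset HNRNPH1 (-0.21) and HNRNPH3 (-0.29) were lower. With a replicate block added to the offset HNRNPH1 was not called there. HNRNPF, a close relative of the H proteins, had 15383 and 14477 at Nut 0h, 17601 and 19091 at Nut 1h, then 10729 and 10018 at Nut 10h. HNRNPF was higher at Nut 1h (0.30 ± 0.09, and 0.14, not called, with the offset), though not without Nut 0h replicate 2 (0.24, adjusted p = 0.116) or Nut 1h replicate 2 (0.23, adjusted p = 0.141), and lower at Nut 10h (-0.53 ± 0.09, adjusted p = 0.000791).

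HNRNPAB, which binds RNA and single-stranded DNA, had the largest fall at Nut 10h. Its normalized counts were 11945 and 10652 at Nut 0h, 10724 and 11724 at Nut 1h, then 6650.5 and 6252 at Nut 10h. Nut 0h and Nut 1h overlapped (-0.01 ± 0.10, adjusted p = 0.937) and Nut 10h was below both (-0.81 ± 0.10, adjusted p = 2.53e-05). With the offset it was higher at Nut 1h (0.42 ± 0.07) and lower at Nut 10h (-0.84 ± 0.07). HNRNPD, known as AUF1 and a factor in the decay of mRNAs with AU-rich elements, had 11254 and 10957 normalized counts at Nut 0h, 17078 and 18869 at Nut 1h, then 6827 and 8019 at Nut 10h. No conditions overlapped, with changes of 0.69 ± 0.10 (-0.17 with the offset, not called) and -0.58 ± 0.10 (adjusted p = 0.0007, -0.62 with the offset). HNRNPR had 6893 and 6978 at Nut 0h, 12728 and 13288 at Nut 1h, then 4732 and 5479 at Nut 10h. It too had no overlap, with 0.91 ± 0.10 (-0.01 with the offset, not called) and -0.44 ± 0.10 (adjusted p = 0.0035, -0.48 with the offset).

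HNRNPA1, the most studied splicing repressor of the family and the member with the highest level per kilobase at Nut 0h, had 34169 and 32883 normalized counts at Nut 0h, 59679 and 63213 at Nut 1h, then 33168 and 32832 at Nut 10h. It was high at Nut 1h alone (0.87 ± 0.09, and 0.36 with the offset), and the other conditions overlapped (-0.02 ± 0.09). Rows for 75 HNRNPA1 pseudogenes together held 0.986% as many counts as the gene, and the handling of multimapping reads is not given in the sources used here. HNRNPUL2, the hnRNP with the lowest level per kilobase, had 1005.0 and 1078 at Nut 0h, 1791 and 1742 at Nut 1h, then 801 and 1004 at Nut 10h. It was higher at Nut 1h (0.76 ± 0.11, and 0.95 with the offset) and not called at Nut 10h (-0.21 ± 0.11), where it was lower with the offset (-0.25) or without Nut 10h replicate 2 (-0.36, adjusted p = 0.0316, with the same assumption on the lone library). Its exons overlap those of the readthrough gene HNRNPUL2-BSCL2 on the same strand, so that its counts could be split between them. The same limit holds for HNRNPH2 with RPL36A-HNRNPH2, and for SRSF1, SRSF6 and HNRNPL with Ensembl genes that have no symbol. It also holds for CLK4 with RN7SKP70, SRSF9 with NRAV, SRSF2 with MIR636, HNRNPA3 with MIR4444-1 and HNRNPK with MIR7-1.

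The remaining hnRNPs split by direction at Nut 1h. HNRNPL, which binds CA repeats, and HNRNPUL1, an RNA-binding protein related to HNRNPU, were lower, with log2 fold changes of -0.25 ± 0.09 and -0.32 ± 0.10. With the offset HNRNPUL1 stood at 0.09 and was not called. With 1 library fewer in the fit HNRNPL did not pass without Nut 0h replicate 1 or either Nut 1h library, at -0.21 to -0.28 (adjusted p from 0.0901 to 0.174). HNRNPUL1 did not pass without Nut 0h replicate 1 (-0.22, adjusted p = 0.155) or Nut 1h replicate 1 (-0.24, adjusted p = 0.156). HNRNPM was higher in both fits (0.35 ± 0.10 and 0.77 ± 0.08), and without the offset it did not pass when Nut 0h replicate 2 (0.29, adjusted p = 0.0628) or Nut 1h replicate 2 (0.28, adjusted p = 0.0792) was left out. HNRNPA0, HNRNPC, HNRNPK and HNRNPU were higher by 0.29 to 0.56, and with the offset HNRNPK was not called (-0.03) and the others were lower (-0.34 for HNRNPA0, -0.34 for HNRNPC and -0.26 for HNRNPU). The rise of HNRNPA0 (0.29 ± 0.10) was not called by DESeq2 (0.24, adjusted p = 0.0705). It also did not pass without Nut 0h replicate 2 (0.14, adjusted p = 0.355), Nut 1h replicate 1 (0.33, adjusted p = 0.0750) or Nut 1h replicate 2 (0.25, adjusted p = 0.167). At Nut 10h HNRNPA0 (-0.44 ± 0.10), HNRNPM (-0.36 ± 0.10), HNRNPU (-0.39 ± 0.09), which organizes nuclear RNA and chromatin, and HNRNPUL1 (-0.40 ± 0.10) were lower. HNRNPC, HNRNPK and HNRNPL were not called (0.07, -0.11 and -0.24), and with the offset HNRNPL was lower (-0.31). Exons of COX20 lie on the strand opposite to HNRNPU, those of PHYKPL opposite HNRNPAB, those of RUFY2 opposite HNRNPH3 and those of TGFB1 opposite HNRNPUL1. Those of HNRNPD-DT lie opposite HNRNPD, those of HNRNPK-AS1 opposite HNRNPK, and those of Ensembl genes without a symbol opposite SRSF1 and HNRNPM. All of these bring the same limit on strand.

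**Figure D4:**
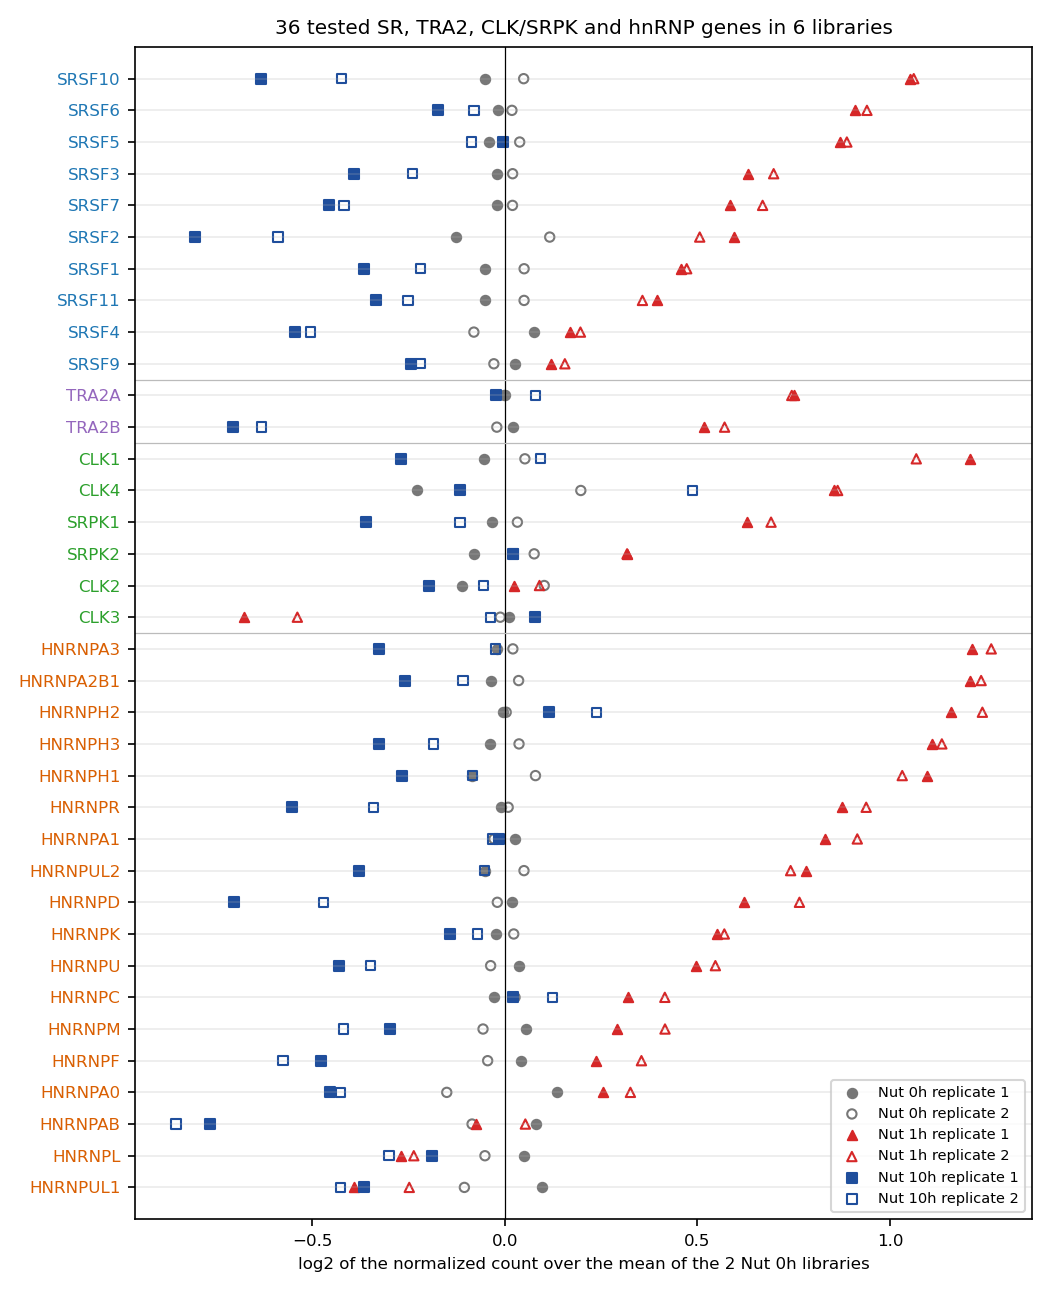
Log2 of the normalized count of each of the 36 tested members in each of the 6 libraries over the mean of the 2 Nut 0h libraries, by family, with filled symbols for replicate 1 and open ones for replicate 2. Most Nut 1h libraries lie to the right and most Nut 10h libraries to the left of Nut 0h. Both Nut 1h libraries of CLK3, HNRNPL and HNRNPUL1 lie to the left.

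The Nut 10h libraries against Nut 0h ask where the genes stood after the longer treatment. None of the 36 was called higher and 16 were called lower, with a median of -0.24. Over all genes 14.1% were called higher and 14.9% lower, with a median of 0.00017. By at least 0.5 on the log2 scale 7 were lower and 0 higher, beside 8.28 and 9.01% of all genes. At an unadjusted p under 0.05 edgeR's test still gave 0 higher, with 20 lower. DESeq2, at an adjusted p of at most 0.05, gave 0 higher and 19 lower. The 16 were 7 of 10 SR proteins (SRSF1, SRSF2, SRSF3, SRSF4, SRSF7, SRSF10 and SRSF11), TRA2B, and 8 of 18 hnRNPs (HNRNPA0, HNRNPAB, HNRNPD, HNRNPF, HNRNPM, HNRNPR, HNRNPU and HNRNPUL1). With the GC-content offset 0 were higher and 24 lower, all 16 among them, where 16.7% of all genes were called higher and 22.6% lower. By GC class, 7 of 14 members below 40% were lower (13.8% of all genes there), 4 of 13 between 40 and 45% (13.7%) and 5 of 9 from 45% on (15.9%). Without Nut 0h replicate 1 the count of 16 fell to 10, and without Nut 10h replicate 1 a single member, CLK4, was called higher. Fits without a library also have 1 residual degree of freedom fewer, and 3 members close to the threshold did not pass in most of them at log2 fold changes near those of the full fit. These were SRSF11 without any of the 6 libraries (-0.25 to -0.34, adjusted p from 0.0569 to 0.171), and SRSF1 (-0.22 to -0.34, adjusted p from 0.0612 to 0.219) and SRSF3 (-0.24 to -0.33, adjusted p from 0.0534 to 0.174) without any but Nut 10h replicate 2. Without Nut 0h replicate 1, HNRNPA0 (-0.29, adjusted p = 0.118), HNRNPUL1 (-0.29, adjusted p = 0.121) and HNRNPM (-0.30, adjusted p = 0.107) did not pass, nor did HNRNPM without Nut 10h replicate 2 (-0.28, adjusted p = 0.125).

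Nut 10h was then set against Nut 1h, which tests the difference between the changes from Nut 0h at both times directly. Of the 36 members 32 were lower at Nut 10h than at Nut 1h and CLK3 alone was higher (0.63 ± 0.10, adjusted p = 4.75e-05), with a median of -0.89. Over all genes 33.7% were called lower and 34.2% higher. By at least 0.5 on the log2 scale 29 members were lower and 1 higher, beside 26.3 and 28.2% of all genes. The widest difference was that of SRSF10 (-1.58 ± 0.10, adjusted p = 1.2e-08), followed by HNRNPA3 (-1.41 ± 0.11), HNRNPA2B1 (-1.40 ± 0.10), HNRNPH3 (-1.38 ± 0.09) and HNRNPR (-1.35 ± 0.10). In that order these stood at -0.74, -0.65, -0.86, -0.91 and -0.47 with the offset. CLK2 (-0.18), HNRNPL (0.01) and HNRNPUL1 (-0.08) were not called without the offset. With the offset 23 were lower and 3 higher, with a median of -0.42, where 28.9% of all genes were called lower and 28.8% higher. In both fits 21 members were lower. The 3 higher with the offset were CLK3 (0.84 ± 0.08), HNRNPC (0.38 ± 0.08) and SRPK2 (0.35 ± 0.08). In the offset fit HNRNPAB (-1.26 ± 0.08), HNRNPUL2 (-1.20 ± 0.10) and HNRNPM (-1.16 ± 0.08) had the widest differences.

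Other splicing genes were read from lists, beside the same background over all genes. Of 45 proteins of the core spliceosome, 18 (40%) were higher and 15 (33.3%) lower at Nut 1h, with a median of -0.01, beside 34.5% and 32.3% of all genes. SNRPD1 (1.20 ± 0.09) and SNRPE (1.01 ± 0.09), of the Sm ring, had the largest rises, and SNRPA of U1 (-1.03 ± 0.10) and SNRPB of the Sm ring (-1.01 ± 0.13) the largest falls. With the offset they stood at 0.54, 0.30, -0.38 and -1.26. At Nut 10h edgeR's test called 0 of the 45 higher (0 also at an unadjusted p under 0.05 and by DESeq2) and 26 (57.8%, beside 14.9% of all genes) lower, with a median of -0.31, among them SF3A2 of the U2 complex (-0.69 ± 0.13) and SNRPB (-0.66 ± 0.13). With the offset 34 (75.6%, beside 22.6% of all genes) were lower at Nut 10h and 0 higher. At Nut 1h the offset fit called 15 (33.3%, beside 20.3%) higher and 11 (24.4%, beside 25.0%) lower.

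Of 26 tested SR-related proteins outside the members, 18 were higher and 2 lower at Nut 1h. These are 69.2 and 7.7%, beside 34.5 and 32.3% of all genes. At Nut 10h 2 (7.7%) were higher and 11 (42.3%) lower, beside 14.1 and 14.9%. With the offset 10 (38.5%) were higher and 4 (15.4%) lower at Nut 1h, beside 20.3 and 25.0% of all genes, and 2 (7.7%) were higher and 16 (61.5%) lower at Nut 10h, beside 16.7 and 22.6%. BCLAF1 (1.36 ± 0.10) and the kinase PRPF4B (1.10 ± 0.10) led the rises at Nut 1h, while SCAF1 (-1.57 ± 0.14) and RNPS1 of the exon junction complex (-0.91 ± 0.10) were lower. With the offset BCLAF1 stood at 0.52, PRPF4B at 0.28, SCAF1 at 0.06 and RNPS1 at -0.90, so that SCAF1 changed its sign. At Nut 10h SCAF1 (-0.53 ± 0.14) and RNPS1 (-0.44 ± 0.10) were again lower. SRSF8, an SR protein gene outside the members, was higher at Nut 10h by 1.30 ± 0.11 (adjusted p = 5.19e-07), with 561 and 476 normalized counts at Nut 0h, 753 and 750.1 at Nut 1h, then 1293 and 1263 at Nut 10h. The other gene higher there was SRPK3, a kinase known from muscle, at 0.67 ± 0.22 and at most 130 normalized counts in any library.

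Of 29 hnRNP-like and other splicing regulators, 19 (65.5%) were higher and 6 (20.7%) lower at Nut 1h, beside 34.5 and 32.3% of all genes. At Nut 10h 2 (6.9%) were higher and 13 (44.8%) lower, beside 14.1 and 14.9%. MBNL3 (1.96 ± 0.17) and SYNCRIP (1.04 ± 0.11) had the largest rises at Nut 1h, while PCBP1 (-1.13 ± 0.11) and RBM10 (-0.87 ± 0.10) had the largest falls. With the offset MBNL3 stood at 1.13, SYNCRIP at 0.19, PCBP1 at -0.72 and RBM10 at 0.01, so that RBM10 changed its sign. At Nut 10h HNRNPDL, a paralog of HNRNPD (-0.66 ± 0.09), and KHSRP (-0.58 ± 0.11) were the lowest, and PTBP3, a paralog of the polypyrimidine tract protein (0.72 ± 0.12), and CELF1 (0.27 ± 0.10) were the ones called higher. With the offset 7 of the 29 (24.1%, beside 20.3% of all genes) were higher and 12 (41.4%, beside 25.0%) lower at Nut 1h. At Nut 10h 3 (10.3%, beside 16.7%) were higher and 18 (62.1%, beside 22.6%) lower with it. Of the 3 import receptors, TNPO1, which carries hnRNPs, was 0.84 ± 0.11 at Nut 1h and TNPO2 -0.35 ± 0.09, while TNPO3, which carries SR proteins, was lower at Nut 10h (-0.37 ± 0.09). With the offset none of the 3 was called at Nut 1h and all 3 were lower at Nut 10h.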

How the data were processed

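RNA-seq counts of 6 HCT116 libraries were analysed. The authors trimmed paired-end reads with Trim Galore 0.6.6, aligned them to GRCh37 with STAR 2.7.0f and counted them per gene with featureCounts of Subread 2.0.0, and the deposited values are whole-number counts without normalization for 57905 genes. The strand setting is not given in the sources used here. The authors' table of comparisons, made with DESeq2 1.36.0, was read for gene identifiers only. Its other columns hold their fold changes and p-values and were not used.

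The 36 members were tested in a fit of all 16565 genes kept by filterByExpr, with TMM factors and edgeR's quasi-likelihood test (edgeR 4.0.16, R 4.3.3), the condition as the only term and 3 residual degrees of freedom. P-values were adjusted over all genes by Benjamini-Hochberg and called at 0.05 or below. The standard error is the absolute log2 change over the square root of F. A normalized count is the count over the TMM-scaled library size, times the mean size. GC content was that of the longest transcript (GENCODE lifted to GRCh37), known for 97.4% of tested genes and all 36 members, and its offset was a loess trend (span 0.4). Replicates were distinct libraries (chi-square per degree of freedom between 5.40 and 17.6).

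Alternatives were DESeq2 1.42.0, size factors of the RLE method, no filter, fits of 2 conditions, a replicate block, the offset, a minimum change of 0.5 and each library left out. Per-library values were given for members that passed and were among the 8 largest changes of a comparison, and for the highest and lowest level of each family. From the other lists the 2 largest called changes in each direction were named. The members and lists were chosen with earlier results of these data known. The fit was tested on simulated data.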

Additional observations from a re-analysis of the deposited data

Results flagged for a closer look

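The effect of Nutlin-3a differed between Nut 1h and Nut 10h in 33 of the 36 tested members, by the contrast of both time points in edgeR's quasi-likelihood test, where 34.2% of all genes were called higher and 33.7% lower. The values that follow are log2 fold changes of Nut 10h against Nut 1h, for each family first without the GC-content offset and then with it. Among the SR proteins they were -1.58 for SRSF10, -1.24 for SRSF2, -1.06 for SRSF7, -1.05 for SRSF6, -0.98 for SRSF3, -0.92 for SRSF5, -0.75 for SRSF1, -0.71 for SRSF4, -0.67 for SRSF11 and -0.37 for SRSF9. In that order the offset gave -0.74, -0.96, -0.49, -0.40, -0.31, -0.30, -0.05, -0.10, 0.14 and 0.17. TRA2B stood at -1.21 and TRA2A at -0.72, and with the offset at -0.59 and -0.13. Among the kinases they were -1.22 for CLK1, -0.89 for SRPK1, -0.64 for CLK4, -0.29 for SRPK2 and 0.63 for CLK3, the only one above 0 without the offset. In that order the offset gave -0.37, -0.56, 0.18, 0.35 and 0.84.

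Among the hnRNPs they were -1.41 for HNRNPA3, -1.40 for HNRNPA2B1, -1.38 for HNRNPH3, -1.35 for HNRNPR, -1.28 for HNRNPD, -1.24 for HNRNPH1, -1.02 for HNRNPH2, -0.97 for HNRNPUL2, -0.91 for HNRNPU, -0.90 for HNRNPA1, -0.82 for HNRNPF, -0.80 for HNRNPAB, -0.73 for HNRNPA0, -0.71 for HNRNPM, -0.67 for HNRNPK and -0.30 for HNRNPC. In that order the offset gave -0.65, -0.86, -0.91, -0.47, -0.45, -0.42, -0.50, -1.20, -0.17, -0.42, -0.73, -1.26, -0.14, -1.16, -0.10 and 0.38. With the GC-content offset 22 of the 33 passed in the same direction (21 lower and CLK3 higher), and SRPK2 and HNRNPC passed in the other, where 28.8% of all genes were called higher and 28.9% lower.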

How the results depend on the processing

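The GC-content offset changed the Nut 1h results most. It gave 16 members higher and 10 lower at Nut 1h, and 3 higher at Nut 10h against Nut 1h. With the replicate block as well these were 15, 10 and 3, and of the 24 members lower at Nut 10h with the offset HNRNPA2B1, HNRNPA3 and HNRNPH1 were not called (adjusted p = 0.0801, 0.0742 and 0.0603). The offset turned 16 members at Nut 1h: to -0.001 for CLK4, -0.0081 for HNRNPR, -0.035 for HNRNPK, -0.039 for SRSF3, -0.11 for TRA2B, -0.17 for HNRNPD, -0.26 for HNRNPU, -0.27 for SRSF1, -0.34 for HNRNPA0 and HNRNPC, -0.36 for SRPK2, -0.43 for SRSF9, -0.46 for SRSF4 and SRSF11, 0.091 for HNRNPUL1 and 0.42 for HNRNPAB. With the block added they were -0.0087, -0.034, -0.04, -0.11, -0.17, -0.25, -0.27, -0.33 and -0.34, -0.36, -0.43, -0.45 and -0.46, 0.092 and 0.42 in that order from HNRNPR on, and CLK4 was at 0.016. At Nut 10h against Nut 1h the offset turned SRSF9 (0.17), SRPK2 (0.35), HNRNPC (0.38), SRSF11 (0.14) and CLK4 (0.18), with the block 0.16, 0.35, 0.38, 0.14 and 0.16. The replicate block alone changed no call (29 higher and 3 lower at Nut 1h, 16 lower at Nut 10h, 32 lower and 1 higher between them). The replicate numbers were not taken to pair the libraries, because the correlation of replicate differences was not above 0.1 in every pair of conditions. It was -0.30 for Nut 0h and Nut 1h, 0.44 for Nut 0h and Nut 10h, and -0.27 for Nut 1h and Nut 10h.

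A minimum change of 0.5 on the log2 scale left 22 members higher and 1 lower at Nut 1h, 0 higher and 7 lower at Nut 10h, and 1 higher and 29 lower at Nut 10h against Nut 1h. With each library left out in turn, members higher at Nut 1h numbered 25 to 29 and lower 1 to 3 (1 without Nut 0h replicate 1 or Nut 1h replicate 1, which was CLK3). At Nut 10h 10 to 16 were lower and 0 to 1 higher, and at Nut 10h against Nut 1h 29 to 32 were lower. SRSF1, SRSF3 and SRSF11 at Nut 10h were not called in a fit of those 2 conditions alone. Of the rises at Nut 1h, those of SRPK2, HNRNPA0, HNRNPF and HNRNPM were lost without some library (lowest log2 fold changes 0.23, 0.14, 0.23 and 0.28), that of HNRNPA0 also in DESeq2. Of the differences between Nut 10h and Nut 1h, those of CLK4, SRPK2 and HNRNPC were lost without some library. There CLK4 stood at -0.33 (-0.64 in the full fit), SRPK2 at -0.24 to -0.30 (-0.29) and HNRNPC at -0.21 to -0.30 (-0.30). Other size factors, DESeq2 and no filter moved the count of lower members at Nut 10h to between 17 and 21 and turned no member. The cause of these shifts was not tested. With 2 libraries per condition, changes near 0.3 on the log2 scale lie at the limit of what passed.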
